A study of Mus musculus with 18 samples.

Results

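CD33 is grouped with surface receptors that restrain myeloid cells. From these receptors, their relatives and their signalling, 10 genes were followed in cultured mouse macrophages that were loaded with modified LDL. The genes are *Cd33* and *Siglece*, which encode sialic acid-binding receptors (Siglecs), the receptors *Sirpa*, *Pirb*, *Lilrb4a*, *Lilr4b*, *Cd300a*, *Cd300lf* and *Clec12a*, and *Ptpn6*, which encodes the phosphatase SHP-1. They are 10 of the 31053 genes in the table, and all 10 passed the filter on low counts that left 12290 genes for testing. The genes were chosen by measured values as well as by their names, since *Cd33* was already known as one of the larger rises with Ox-LDL in knockout cells. Values of that comparison are therefore given for these genes as a description, with no test of a single gene, and so are values of *Cd33* in other comparisons that use its knockout Control or Ox-LDL libraries. Tests of the other genes on those libraries are printed, but they are not fully independent of the choice.

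Inhibitory receptors of this kind carry tyrosine motifs in their cytoplasmic tails, and these are phosphorylated by Src-family kinases when the receptor meets its ligand. The phosphorylated motif recruits SHP-1 and related phosphatases, which oppose the signals of activating receptors that work through the adaptors FcRγ and DAP12. Siglecs read sialic acid on the cell's own glycans, SIRPα reads CD47, PIR-B reads MHC class I, and the CD300 receptors read lipids exposed on dying cells. *Lilr4b* is a near copy of *Lilrb4a* whose product, gp49A, lacks the inhibitory motifs that gp49B has, and mouse CD33 differs from human CD33 in its tail.

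The cells were bone marrow-derived macrophages from 3 mice with myeloid deletion of *Slc7a7* (Slc7a7-/-, here knockout) and 3 control mice (Slc7a7+/+, here wild type), on the C57Bl/6J background and 12 weeks old. *Slc7a7* encodes an amino acid transporter, and its deletion was driven by Cre from the *Lyz2* locus, which is active in macrophages and neutrophils. After 7 days of culture the cells were exposed over 24 h to vehicle (Control), to acetylated LDL at 50 μg/mL (AcLDL) or to oxidized LDL at 100 μg/mL (OxLDL), lipoproteins that scavenger receptors take up. Every mouse gave 1 library per treatment, so there were 18 libraries, 3 in each of 6 groups. The LDLs differ in kind and dose, and these cannot be told apart.

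Total counts were between 1043492 and 1768816 per library, and 3 counts corresponded to between 1.67 and 2.85 CPM, which are read counts divided by TMM-scaled library size. A count of 0 allows a level up to that limit, for counting error only. *Slc7a7* itself was lower in every knockout library than in every wild type library of the same medium, at 6.58 against 14.9 CPM on average in Control, 3.27 against 25.3 with Ac-LDL and 9.91 against 28.0 with Ox-LDL. All 8 macrophage markers had counts, and without *Lyz2*, the Cre locus, their summed level was between 3383 and 6676 CPM. The 6 dendritic, 6 eosinophil and mast cell and 5 lymphoid markers summed to at most 4.21 CPM in any library, with *Cpa3*, *Fcer1a*, *Cd79a* and *Nkg7* at 0. Those of monocytes (7) were between 76.8 and 182 CPM, of plasmacytoid cells (3) between 12.3 and 30.3 CPM and of stromal cells (4) between 0 and 26.9 CPM. The 10 neutrophil markers, with *Retnlg* at 0, summed to between 101 and 150 CPM in wild type Control and between 185 and 329 CPM in wild type Ox-LDL cells, and their part in the wild type results below was not tested. The 3 libraries of wild type mouse 1 had the lowest totals of their groups, and the libraries of this mouse had the lowest value of their group on the first principal component, which held 14.5% of the variance. They are kept, and some of the results that move without them are given both ways.

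The genes lie on chromosomes 2, 6, 7, 10 and 11 of GRCm38. *Cd33* (ENSMUSG00000004609, minus strand, 43524216 to 43544428) and *Siglece* (ENSMUSG00000030474, minus strand, 43651070 to 43660161) are neighbours on chromosome 7, 107 kb apart with 4 protein-coding genes between them. The sequences just before the starts of these 2 Siglec genes are shown because their levels moved in opposite directions. They are the 150 bases before each RefSeq start, 5′ to 3′ on the gene's strand in GRCm38.p6, from chr7:43533172-43533321 for *Cd33* and chr7:43660162-43660311 for *Siglece*, and no annotated exon of GRCm38 overlaps either. The RefSeq start of *Cd33* lies 11.3 kb inside the span given above, which begins at the farthest of 6 annotated transcript starts, and 1 of these 6 lies within 50 bases of the RefSeq start. Capitals mark the PU.1 core GAGGAA, the letters bound by the myeloid factor PU.1, read on either strand (TTCCTC on the strand shown).
Cd33: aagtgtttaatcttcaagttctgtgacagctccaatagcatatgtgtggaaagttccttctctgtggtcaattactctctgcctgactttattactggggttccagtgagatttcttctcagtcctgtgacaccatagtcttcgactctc
Siglece: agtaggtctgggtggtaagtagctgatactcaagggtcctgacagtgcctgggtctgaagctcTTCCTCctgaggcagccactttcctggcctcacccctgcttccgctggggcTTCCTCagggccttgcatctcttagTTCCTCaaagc
The core occurred at 3 places in the *Siglece* window and at 0 in the *Cd33* window. Of the 10 genes, 8 had a RefSeq window of this kind, and 5 of these 8 (*Clec12a*, *Pirb*, *Siglece*, *Cd300a* and *Cd300lf*) held the core at least once, against 14.5% of all 32851 windows of 150 bases. The other letters searched, on both strands, were TGANTCA of AP-1 (0 of the 8, 4.24% of all windows), TTGCNNAA of C/EBP (only in *Clec12a*, 5.46%), AGGTCA of nuclear receptors (0 of the 8, 8.58%), TGACNNNGC of the antioxidant response (in *Pirb* and *Siglece*, 6.80%) and the interferon response element (0 of the 8, 1.59%). These are matches of letters, and they say nothing of whether a factor bound there.

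Between genes, levels were compared per kilobase of the median protein-coding transcript. In wild type Control cells, *Lilrb4a* (443 ± 54.1 CPM per kb, SD, n = 3), *Sirpa* (406 ± 82.0), *Lilr4b* (309 ± 42.5) and *Ptpn6* (289 ± 31.2) were the highest, followed by *Clec12a* (221 ± 63.9) and *Pirb* (166 ± 44.5). *Cd300a* stood at 43.3 ± 5.59 CPM per kb, *Cd33* at 11.6 ± 6.79, *Siglece* at 6.31 ± 1.93 and *Cd300lf* at 3.70 ± 1.11. The ranges of neighbours in this order overlapped, except between *Pirb* and *Cd300a* and between *Cd300a* and *Cd33*. With the longest transcript as the length, *Pirb* moved from 6th to 2nd place and *Siglece* (4.34 CPM per kb) stood above *Cd33* (3.82). Both Siglecs were thus present at a low level beside the abundant receptors, and their counts per library were between 11 and 68 for *Cd33* and between 0 and 18 for *Siglece*.

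**Figure D1:**
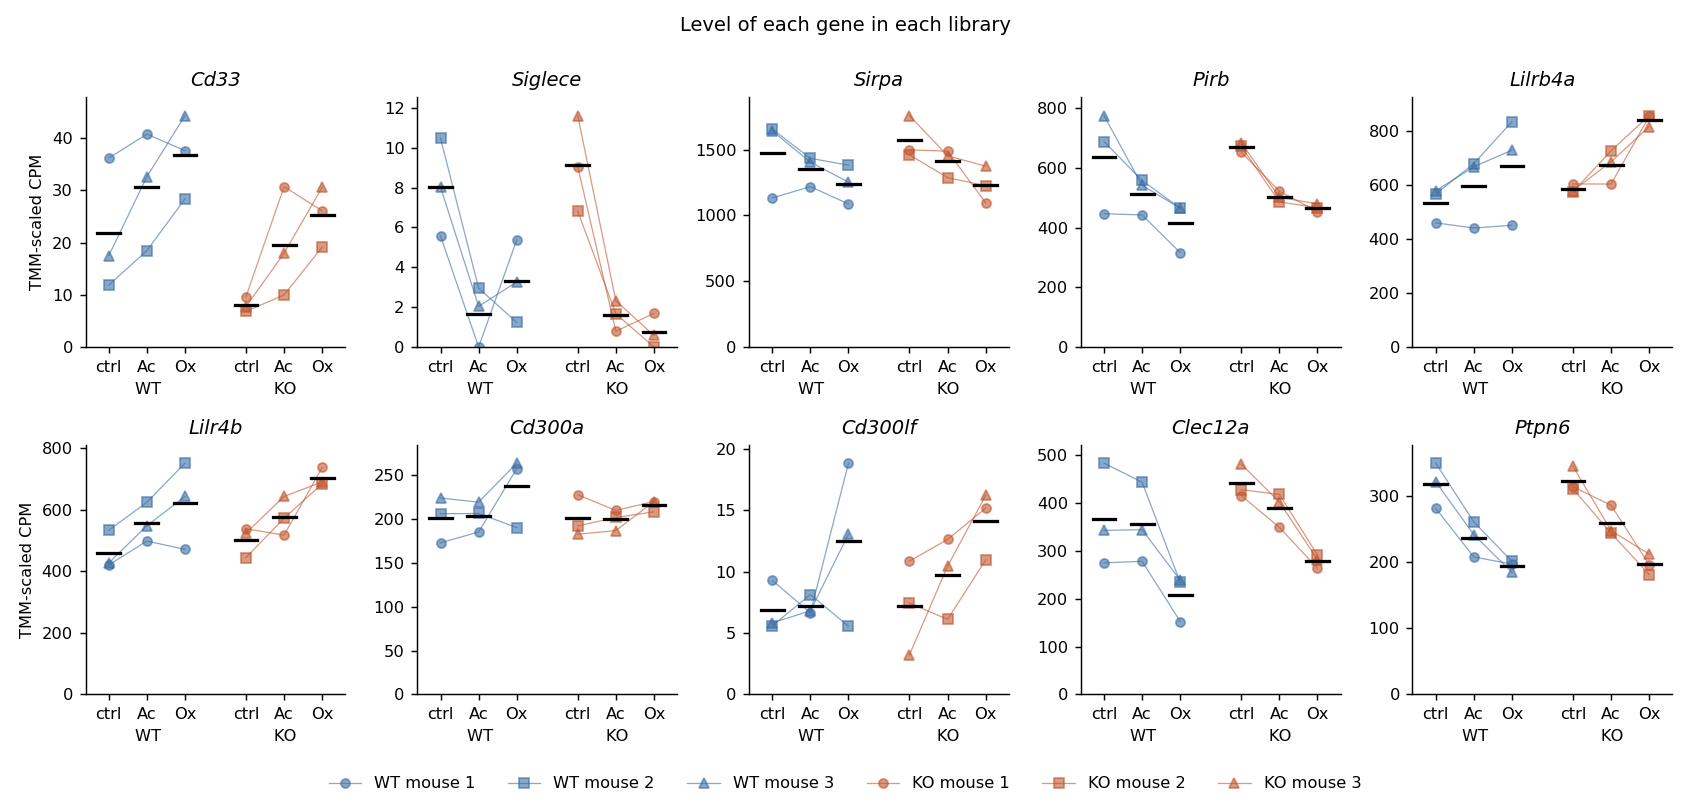
TMM-scaled CPM (linear axis from 0) of the 10 genes in each of the 18 libraries, by genotype (WT, KO) and medium (ctrl, Control; Ac, AcLDL; Ox, OxLDL). Each symbol is 1 library, lines join the libraries of a mouse and black bars are means of 3; *Cd33* was lowest in the 3 knockout Control libraries, at 6.81 to 9.65 CPM, and *Siglece* was at 0 to 1.68 CPM in knockout cells with Ox-LDL.

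*Cd33* was higher with both modified LDLs in every mouse, and its lowest levels were those of untreated knockout cells. In wild type mice 1, 2 and 3 it was 36.2, 11.9 and 17.5 CPM in Control, 40.8, 18.5 and 32.6 CPM with Ac-LDL and 37.6, 28.4 and 44.3 CPM with Ox-LDL. In knockout mice 1, 2 and 3 it was 9.65, 6.81 and 7.74 CPM in Control, 30.7, 9.996 and 17.98 CPM with Ac-LDL and 26.1, 19.2 and 30.6 CPM with Ox-LDL. The groups with LDL overlapped with Control in wild type cells, where mouse 1 was already high without LDL, and did not overlap with Control in knockout cells. In knockout cells with Ox-LDL, the comparison by which *Cd33* was chosen, the log2 fold change was 1.64 (SE 0.42), or 3.14 times by the means.
In wild type cells, from other mice, it was 0.79 (SE 0.36) with Ox-LDL (edgeR, adjusted p = 0.444), and with the mouse as a block it was 0.84 (SE 0.25, adjusted p = 0.0368). Per mouse, the wild type difference with Ox-LDL was 0.05, 1.17 and 1.28 on the log2 CPM scale. Without wild type mouse 1 the log2 fold change was 1.31, with an adjusted p of 0.0908 in edgeR. With Ac-LDL it was 0.52 (SE 0.37) in wild type cells (edgeR, adjusted p = 0.832; 0.435 with the block) and 1.22 (SE 0.43) in knockout cells. The difference between the genotypes in response was 0.85 (SE 0.56) for Ox-LDL and 0.70 (SE 0.58) for Ac-LDL, and without wild type mouse 1 it was 0.35 and 0.41.

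*Siglece*, the other Siglec, a receptor with inhibitory motifs on mouse macrophages and neutrophils, was lower with Ac-LDL in every mouse and with Ox-LDL in all but wild type mouse 1, which had 6 counts in Control and 6 with Ox-LDL. In wild type mice 1, 2 and 3 it was 5.57, 10.5 and 8.02 CPM in Control, 0, 2.96 and 2.04 CPM with Ac-LDL and 5.38, 1.23 and 3.26 CPM with Ox-LDL. In knockout mice 1, 2 and 3 it was 9.04, 6.81 and 11.6 CPM in Control, 0.788, 1.67 and 2.32 CPM with Ac-LDL and 1.68, 0 and 0.578 CPM with Ox-LDL. Control did not overlap with either LDL in either genotype, but in wild type cells with Ox-LDL that rests on the scaling of the 2 libraries of mouse 1. These levels rest on few reads, 32 counts in 3 wild type Control libraries against 7 with Ac-LDL and 13 with Ox-LDL, and 44 counts in 3 knockout Control libraries against 8 and 3.
Pooled over the libraries of a group, *Siglece* was 13.3 times lower in knockout cells with Ox-LDL, the comparison used for the choice. In wild type cells with Ox-LDL it was 2.71 times lower (95% interval 1.38 to 5.62, exact, counting error only). With Ac-LDL it was 5.47 times lower in knockout (2.55 to 13.4) and 4.57 times lower in wild type cells (1.98 to 12.3). In the fit across all genes, the log2 fold change with Ac-LDL was -2.40 (SE 0.61) in knockout cells (adjusted p = 0.0758; 0.0242 with the block) and -2.14 (SE 0.65) in wild type cells (adjusted p = 0.210; 0.0926 with the block). With Ox-LDL in wild type cells it was -1.37 (SE 0.58), with adjusted p = 0.384 in edgeR, and -2.02 without wild type mouse 1 (adjusted p = 0.121). The Ox-LDL response was lower in knockout than in wild type cells by 2.20 on the log2 scale (SE 1.05), a difference that contains the comparison used for the choice.

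*Ptpn6*, which encodes SHP-1, a phosphatase that inhibitory motifs recruit, fell with Ox-LDL in wild type cells and was also lower in every knockout mouse. In wild type mice 1, 2 and 3 it was 281, 350 and 321 CPM in Control, 208, 261 and 241 CPM with Ac-LDL and 197, 201 and 185 CPM with Ox-LDL. In knockout mice 1, 2 and 3 it was 314, 311 and 345 CPM in Control, 286, 244 and 248 CPM with Ac-LDL and 196, 181 and 212 CPM with Ox-LDL. Control did not overlap with either LDL in either genotype, and Ox-LDL lay under Ac-LDL in every mouse. The log2 fold change with Ox-LDL was -0.71 (SE 0.12) in wild type cells (edgeR, adjusted p = 0.00180) and -0.72 (SE 0.12) in knockout cells. A fit of only the 6 wild type libraries compared gave the same -0.72 with an adjusted p of 0.104.
With Ac-LDL it was -0.42 (SE 0.12) in wild type cells (edgeR, adjusted p = 0.192; 0.00836 with the block) and -0.32 (SE 0.12) in knockout cells (adjusted p = 0.441; 0.0495 with the block). Among the other 15 genes of inhibitory signalling, given below, none was called without the block. Reads of *Ptpn6* and of *Gm20531*, a gene on the other strand that overlaps it, can be told apart only if the counting used strand, which is not stated.

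*Clec12a*, a C-type lectin that recognises uric acid crystals and dead cells, differed from *Ptpn6* in that it was low with Ox-LDL and near Control with Ac-LDL. In wild type mice 1, 2 and 3 it was 275, 483 and 343 CPM in Control, 278, 443 and 344 CPM with Ac-LDL and 152, 234 and 239 CPM with Ox-LDL. In knockout mice 1, 2 and 3 it was 415, 428 and 481 CPM in Control, 349, 418 and 402 CPM with Ac-LDL and 264, 291 and 282 CPM with Ox-LDL. The Ox-LDL libraries lay under all Control and all Ac-LDL libraries of their genotype. In wild type cells the log2 fold change with Ox-LDL was -0.81 (SE 0.19; edgeR, adjusted p = 0.0267), and in knockout cells it was -0.66 (SE 0.19).
The wild type call was lost without Control library 2 (adjusted p = 0.305), without Control library 3 (0.0557), without Ox-LDL library 1 (0.117) and in a fit of the 6 libraries alone (0.260), and was kept with the mouse as a block (5.03e-07). Against Ac-LDL, *Clec12a* with Ox-LDL was -0.77 (SE 0.19) in wild type cells (edgeR, adjusted p = 0.421; 1.24e-05 with the block) and -0.48 (SE 0.19) in knockout cells (adjusted p = 0.818; 0.00373 with the block). The knockout test shares its Ox-LDL libraries with the comparison used for the choice.

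*Pirb*, the receptor for MHC class I, was lower with Ox-LDL in each mouse, with log2 CPM differences from -0.74 to -0.50 in wild type and from -0.53 to -0.51 in knockout mice. In wild type mice 1, 2 and 3 it was 447, 688 and 775 CPM in Control, 442, 558 and 541 CPM with Ac-LDL and 316, 465 and 465 CPM with Ox-LDL. In knockout mice 1, 2 and 3 it was 653, 672 and 685 CPM in Control, 522, 486 and 502 CPM with Ac-LDL and 454, 467 and 479 CPM with Ox-LDL. The knockout groups were tight and did not overlap with Control, whereas the wild type groups overlapped because mouse 1 was low throughout. The log2 fold change with Ox-LDL was -0.61 (SE 0.17) in wild type cells (edgeR, adjusted p = 0.0793; 1.37e-05 with the block) and -0.52 (SE 0.17) in knockout cells.
Without wild type mouse 1, *Pirb* fell by 0.65 on the log2 scale in wild type cells (edgeR, adjusted p = 0.00168). With Ac-LDL in knockout cells it was -0.41 (SE 0.17), with adjusted p = 0.510, and 0.00374 with the block. Of the 31-base words of *Pirb* transcripts, 43.8% also occur in transcripts of other genes, chiefly *Gm14548* and *Lilra6*, so that its counts are uncertain to that extent.

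*Lilrb4a* and *Lilr4b* were higher with Ox-LDL in 5 and 6 of the 6 mice. *Lilrb4a* in wild type mice 1, 2 and 3 was 460, 567 and 579 CPM in Control and 452, 836 and 730 CPM with Ox-LDL, and in knockout mice it was 605, 576 and 580 CPM against 855, 858 and 817 CPM. *Lilr4b* in wild type mice 1, 2 and 3 was 421, 533 and 427 CPM in Control and 471, 751 and 643 CPM with Ox-LDL, and in knockout mice it was 538, 444 and 524 CPM against 738, 684 and 690 CPM. Both genes overlapped between Control and Ox-LDL in wild type cells and did not overlap in knockout cells, and wild type mouse 1 was the mouse with little or no difference.
In knockout cells the log2 fold change was 0.52 (SE 0.18) for *Lilrb4a* and 0.49 (SE 0.16) for *Lilr4b*. In wild type cells it was 0.33 (SE 0.18) for *Lilrb4a* (edgeR, adjusted p = 0.596; 0.0652 with the block) and 0.43 (SE 0.16) for *Lilr4b* (adjusted p = 0.267; 0.00422 with the block). The genes lie 4.25 kb apart on chromosome 10, and 39.1% of the 31-base words of *Lilrb4a* occur in *Lilr4b* transcripts and 36.7% of those of *Lilr4b* in *Lilrb4a*, so that reads could have been split between them and they are not independent measurements.

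The other 3 receptors moved little or rest on few reads. *Sirpa*, whose product receives the CD47 signal against engulfment, was the most abundant of the 10 by counts, between 1088 and 1759 CPM, with a log2 fold change with Ox-LDL of -0.35 (SE 0.16) in knockout cells. *Cd300a* stayed between 173 and 263 CPM in all libraries, overlapped with Control in every treatment comparison and was not called in any comparison, with or without the block. *Cd300lf* was between 3.22 and 18.8 CPM, and its 5 to 28 counts per library left it with wide errors, as in the log2 fold change of 0.96 (SE 0.41) with Ox-LDL in knockout cells. In bulk RNA, fewer cells of a type and less RNA per cell cannot be told apart, for these and for all genes above.

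**Figure D2:**
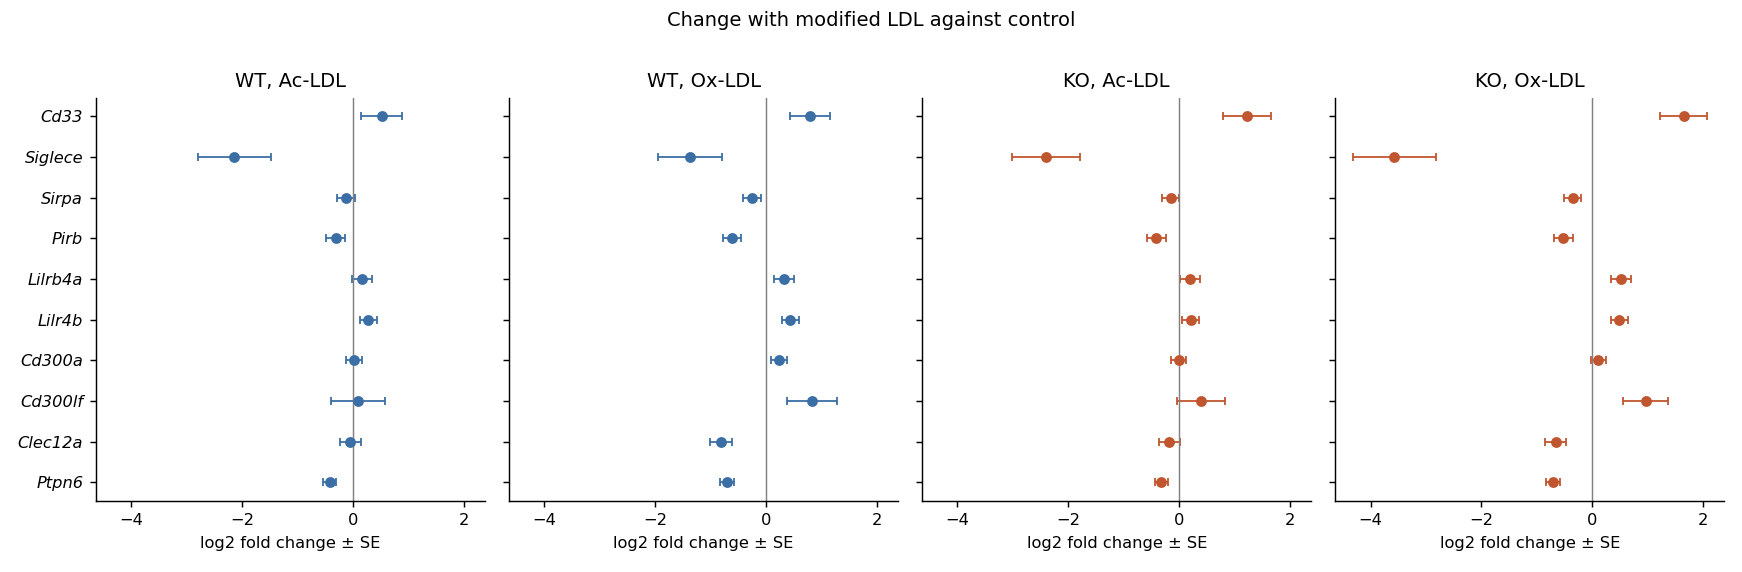
Log2 fold change (x axis, edgeR fit of all 18 libraries) of each gene with Ac-LDL or Ox-LDL against Control of the same genotype. Points are estimates and bars 1 SE; *Cd33* lay above 0 and *Siglece* and *Ptpn6* below 0 in all 4 comparisons, and the SE was largest for *Siglece*, from 0.58 to 0.75.

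Counted over the 10 genes, edgeR called 2 with Ox-LDL in wild type cells (*Ptpn6* and *Clec12a*, both lower), against 1.34% of all genes tested. With the mouse as a block it called 5 (*Cd33* and *Lilr4b* higher, *Ptpn6*, *Clec12a* and *Pirb* lower), against 4.39% of all genes. Ox-LDL in knockout cells was the comparison used for the choice. There 3 were past the threshold (2.32% of all genes) and 8 with the block (7.18%), from which nothing is read. With Ac-LDL, 0 were called in knockout cells (0.521% of all genes) and 0 in wild type cells (0.472%), and 0 in each by DESeq2. At an unadjusted p under 0.05 in edgeR were 4 in knockout and 2 in wild type cells. Of all 12290 genes these were 926 and 901. The 4 in knockout cells include *Cd33*, of which no test is read. With the block, 4 were called with Ac-LDL in knockout cells (2.5% of all genes) and 1 in wild type cells (*Ptpn6*, lower, 2.16%). Of the 4, *Siglece*, *Pirb* and *Ptpn6* were lower, in a test that shares its Control libraries with the comparison used for the choice. The other was *Cd33*, whose choice rests on the same Control libraries, so that no test of it is read.
Between the LDLs, 0 of the 10 were called in knockout (0.0651% of all genes) or wild type cells (0.00814%), and 0 by DESeq2. At an unadjusted p under 0.05 in edgeR were 2 in each genotype. Of all 12290 genes these were 682 in knockout and 632 in wild type cells. With the block, Ox-LDL against Ac-LDL gave 2 in knockout cells (*Clec12a* and *Ptpn6*, both lower; 1.38% of all genes) and 1 in wild type cells (*Clec12a*, lower; 0.732%). In wild type cells Ox-LDL did not overlap with Control for 3 of the 10 genes, *Siglece* among them, against 11.8% of all genes. In knockout cells, the comparison used for the choice, this held for 9 of the 10 (21.6% of all genes). Nothing is read from that count either. With Ac-LDL the groups did not overlap for 4 of the 10 in knockout (16.7% of all genes) and for 2 of the 10 in wild type cells (10.98%). The comparisons with each LDL share their Control libraries, and those between the LDLs share the LDL libraries, so they are not independent. The median log2 fold change of the 10 genes with Ox-LDL was -0.01 in wild type and -0.12 in knockout cells, with 5 genes above and 5 below 0 in each, and the median of all genes was within 0.01 of 0.

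Between knockout and wild type cells, edgeR called 0 of the 10 genes in any medium. In Control, *Cd33* in every knockout library (6.81 to 9.65 CPM) lay under every wild type library (11.9 to 36.2 CPM). It was the only 1 of the 10 genes without overlap there. That is near the share of all genes (9.28%), so nothing is read from the count. The log2 fold change of *Cd33* was -1.38 (SE 0.44), and without wild type mouse 1, whose Control library was the highest, it was -0.86. The low knockout Control libraries are also those over which *Cd33* was chosen for its rise, so this value is not independent of the choice. With Ac-LDL and with Ox-LDL *Cd33* was also lower in knockout cells, by -0.68 (SE 0.37) and -0.53 (SE 0.35) on the log2 scale, and the groups overlapped.
With the 3 libraries of each mouse summed, so that a mouse counted once, the log2 fold change of *Cd33* was -0.79 (SE 0.26). Over the alternatives it ran from -1.03 to -0.57. *Clec12a* with Ox-LDL was between 264 and 291 CPM in knockout and between 152 and 239 CPM in wild type cells, without overlap (9.30% of all genes), at 0.41 (SE 0.19) on the log2 scale and an adjusted p of 0.933 in edgeR. Wild type mouse 1 had the lowest of these levels, and over the alternatives the log2 fold change ran from 0.24 to 0.54. Of all genes, 0.00814% were called between the genotypes in Control, 0.0163% with Ac-LDL, 0.00814% with Ox-LDL and 0.00789% over mouse sums. For the difference in response, 0% were called for either LDL, with 338 of 12290 genes at an unadjusted p under 0.05 for Ox-LDL and 327 for Ac-LDL. Among these was 1 of the 10 genes for Ox-LDL, a difference that contains the comparison used for the choice, and 0 for Ac-LDL. At an unadjusted p under 0.05 in edgeR between genotypes, the 10 genes gave 1 in Control, 2 with Ox-LDL (*Clec12a* and *Siglece*) and 0 with Ac-LDL. Of all 12290 genes these were 491 in Control, 587 with Ox-LDL and 601 with Ac-LDL. The 1 in Control was *Cd33*, whose choice rests on the same Control libraries, so that no test of it is read. DESeq2 called 0 of the 10 genes in each medium. The sample numbers in the library labels put all wild type before all knockout libraries. The labels do not say whether these numbers are an order of processing. If they are, that order and genotype cannot be told apart.

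**Figure D3:**
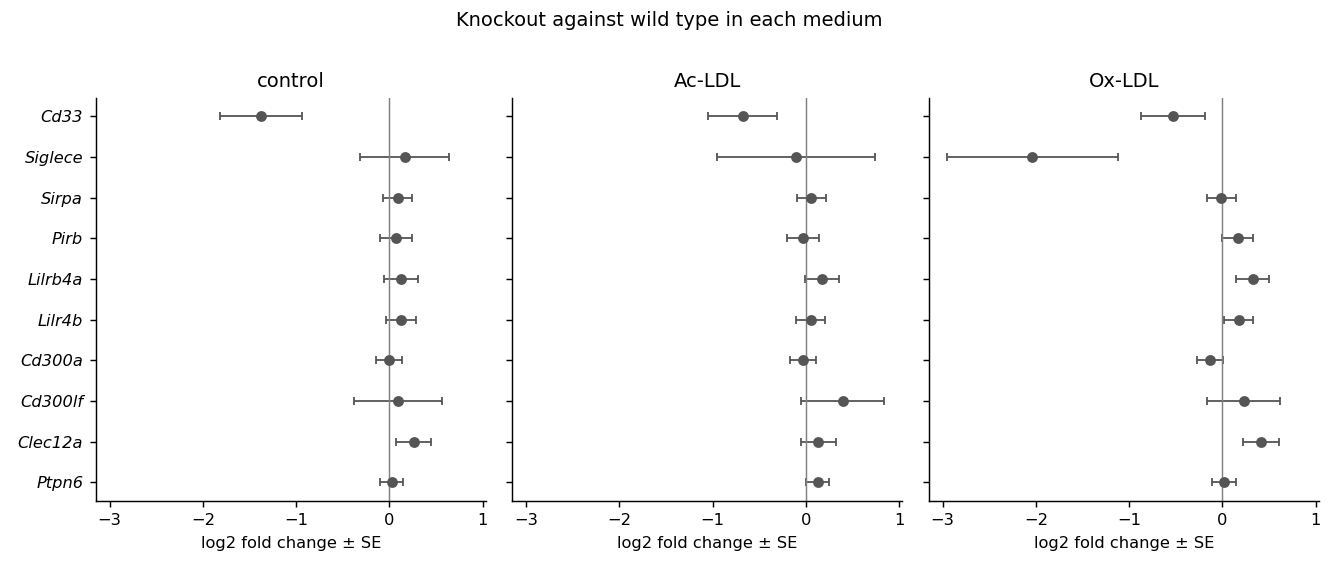
Log2 fold change (x axis, edgeR fit of all 18 libraries) of knockout against wild type cells for each gene in Control, with Ac-LDL and with Ox-LDL. Points are estimates and bars 1 SE; *Cd33* lay below 0 in all 3 media, from -1.38 to -0.53, and *Siglece* had the widest bars.

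The other genes of this system were read from fixed lists, and those that passed the test with LDL in the fit without the block were all lower. Most called genes of the whole table were lower too. With Ox-LDL these were 131 of 165 in wild type and 204 of 285 in knockout cells, and with Ac-LDL 50 of 58 and 55 of 64. Of 15 tested receptors among other inhibitory receptors, *Pilra*, a paired receptor for sialylated glycoproteins, fell with Ox-LDL in wild type (-2.11, SE 0.44; edgeR, adjusted p = 0.00966) and in knockout cells (-1.72, SE 0.40; adjusted p = 0.0172), where 1.34% and 2.32% of all genes were called. Its level went from 21.8 ± 10.2 to 4.77 ± 3.79 CPM in wild type and from 24.2 ± 3.05 to 7.29 ± 2.17 CPM in knockout cells (SD, n = 3). None of the 15 was called with Ac-LDL in either genotype, with or without the block, where 0.472% to 2.5% of all genes were called. The *Pilra* call was lost in wild type cells without Control library 3 and when the other 12 libraries stayed out of the fit (the highest adjusted p over its alternatives was 0.148) and in knockout cells without any 1 of 5 libraries (0.129). With the block, 3 of the 15 were called with Ox-LDL in wild type (4.39% of all genes) and 3 in knockout cells (7.18%). Beside *Pilra* these were *Cd72*, an inhibitory receptor best known on B cells, lower in wild type (-0.64, SE 0.12) and knockout cells (-0.40, SE 0.10), *Cd200r1*, the receptor for CD200, higher in wild type (0.60, SE 0.15), and *Clec4a2*, a C-type lectin with an inhibitory motif, lower in knockout cells (-0.49, SE 0.13).

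Of 23 tested activating receptors and adaptors, 1 was called, *Clec4e*, which encodes Mincle, a receptor for microbial and damaged-cell glycolipids that signals through FcRγ. It is 1 of 23 in each of the 4 comparisons with Control, in which 0.472% to 2.32% of all genes were called. It fell with Ac-LDL and Ox-LDL in both genotypes, from 205 ± 39.8 CPM to 81.4 ± 20.0 and 70.6 ± 9.999 CPM in wild type and from 238 ± 74.4 to 87.7 ± 14.6 and 67.0 ± 17.3 CPM in knockout cells (SD, n = 3). The log2 fold changes of *Clec4e* ran from -1.33 (SE 0.22) to -1.84 (SE 0.22), with adjusted p from 7.80e-06 to 0.00159 in edgeR, and each was kept in every alternative tried. With the block, Ox-LDL gave 2 higher and 3 lower in wild type (4.39% of all genes called) and 1 higher and 4 lower in knockout cells (7.18%). *Fcer1g*, which encodes FcRγ, was lower in wild type (-0.32, SE 0.09; edgeR, adjusted p = 0.0327) and knockout cells (-0.32, SE 0.09; adjusted p = 0.0249), and *Clec5a*, a lectin that signals through DAP12, was lower in wild type (-0.52, SE 0.16) and knockout cells (-0.88, SE 0.16). *Pira2*, an activating relative of PIR-B, was lower in knockout cells (-0.48, SE 0.11), and *Clec4d*, the partner lectin of Mincle, was higher in wild type cells (0.40, SE 0.09). *Fcgr3*, the activating IgG receptor of macrophages, was higher with Ox-LDL in wild type (0.57, SE 0.10; edgeR, adjusted p = 0.000155) and knockout cells (0.71, SE 0.10; adjusted p = 5.11e-06). With Ac-LDL in knockout cells the block gave 1 higher (*Fcgr3*) and 4 lower (*Clec4e*, *Clec4d*, *Clec5a* and *Pira2*; 2.5% of all genes called), and in wild type cells only *Clec4e* (2.16%).

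Among the kinases, *Fgr*, a Src-family kinase of myeloid cells, fell with Ox-LDL in both genotypes. *Fgr* went from 63.9 ± 14.8 to 23.2 ± 4.19 CPM in wild type (-1.46, SE 0.22) and from 64.5 ± 3.83 to 19.5 ± 6.17 CPM in knockout cells (-1.76, SE 0.22; SD, n = 3). Its adjusted p with edgeR was 0.000259 in wild type and 2.24e-05 in knockout cells, and both calls were kept in every alternative tried. *Src*, the kinase that names the family, was also called with Ox-LDL in wild type cells (-1.84, SE 0.45; adjusted p = 0.0345), a call lost in 6 of 17 alternatives, 4 of which left out 1 library. With Ac-LDL in knockout cells *Fgr* was called (-0.94, SE 0.20; edgeR, adjusted p = 0.0285), a call lost without any 1 of 5 libraries. With Ac-LDL in wild type cells *Fgr* was called with the block (-0.76, SE 0.18; edgeR, adjusted p = 0.0142) and not without it. With the block, *Src* was also called lower in knockout cells, with Ox-LDL (-1.32, SE 0.41; edgeR, adjusted p = 0.0365) and with Ac-LDL (-1.51, SE 0.41; adjusted p = 0.0325).
The 15 genes of inhibitory signalling other than *Ptpn6* gave 0 calls with either LDL in edgeR, where 0.472% to 2.32% of all genes were called. With the block 1 of the 15 was called in 3 of these 4 comparisons, in which 2.5% to 7.18% of all genes were called. *Socs3*, an inhibitor of cytokine signalling, was lower with Ox-LDL in wild type (-2.45, SE 0.61; adjusted p = 0.00814) and knockout cells (-2.09, SE 0.55; adjusted p = 0.0110) and with Ac-LDL in knockout cells (-1.82, SE 0.52; adjusted p = 0.0472).

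Of the 23 ligands and sialic acid genes, 4 fell with Ox-LDL in knockout (2.32% of all genes called) and 2 in wild type cells (1.34%). With the block 4 were lower and 2 higher in each genotype (7.18% and 4.39% of all genes), and the 4 lower were *H2-K1*, *B2m*, *Cd47* and *St3gal1* in both. *H2-K1* and *B2m*, the chains of the MHC class I molecule that PIR-B binds, went from 707 ± 39.0 to 407 ± 6.28 CPM and from 864 ± 68.1 to 514 ± 72.2 CPM in knockout cells (SD, n = 3), with log2 fold changes of -0.80 (SE 0.15) and -0.75 (SE 0.15). *Cd47*, the ligand of SIRPα, went from 255 ± 25.3 to 171 ± 15.4 CPM in knockout cells (-0.58, SE 0.13; edgeR, adjusted p = 0.0118), a call lost without any 1 of 4 libraries (adjusted p up to 0.0970). *H2-K1* in wild type cells was -0.60 (SE 0.15; adjusted p = 0.0473), and *St3gal1*, which adds sialic acid to glycans, was -0.73 (SE 0.16; adjusted p = 0.0138) in wild type and -0.57 (SE 0.15; adjusted p = 0.0485) in knockout cells. The *H2-K1* call in wild type cells was lost in 6 of 17 alternatives, and the *St3gal1* calls in 4 of 17 and 10 of 16. *H2-K1* and *B2m* in knockout cells kept theirs in every alternative (adjusted p = 0.00335 and 0.00407). With the block, *B2m* and *Cd47* were also called in wild type cells with Ox-LDL, at -0.38 (SE 0.10; edgeR, adjusted p = 0.0139) and -0.35 (SE 0.10; adjusted p = 0.0415). The genes higher with the block were *St8sia4*, a polysialyltransferase, in wild type (0.44, SE 0.10) and knockout cells (0.38, SE 0.10), and *Angptl2*. *Angptl2*, a secreted ligand of PIR-B, was higher with Ox-LDL in wild type (0.70, SE 0.13; edgeR, adjusted p = 0.000353) and knockout cells (0.68, SE 0.12; adjusted p = 0.000181). No gene of the list was called with Ac-LDL without the block. With it, *Apoe*, the apolipoprotein E of macrophages, was higher and *H2-K1* lower with Ac-LDL in both genotypes, *St3gal1* was lower in wild type cells, and *B2m* and *Cd47* were lower in knockout cells.
The median log2 fold change with Ox-LDL in wild type cells was -0.19 for other inhibitory receptors, -0.03 for activating receptors and adaptors, -0.09 for inhibitory signalling and 0.28 for ligands and sialic acid genes, beside 0.01 for all genes. In knockout cells these medians were -0.10, -0.30, -0.08 and 0.08, beside 0.00 for all genes.

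**Figure D4:**
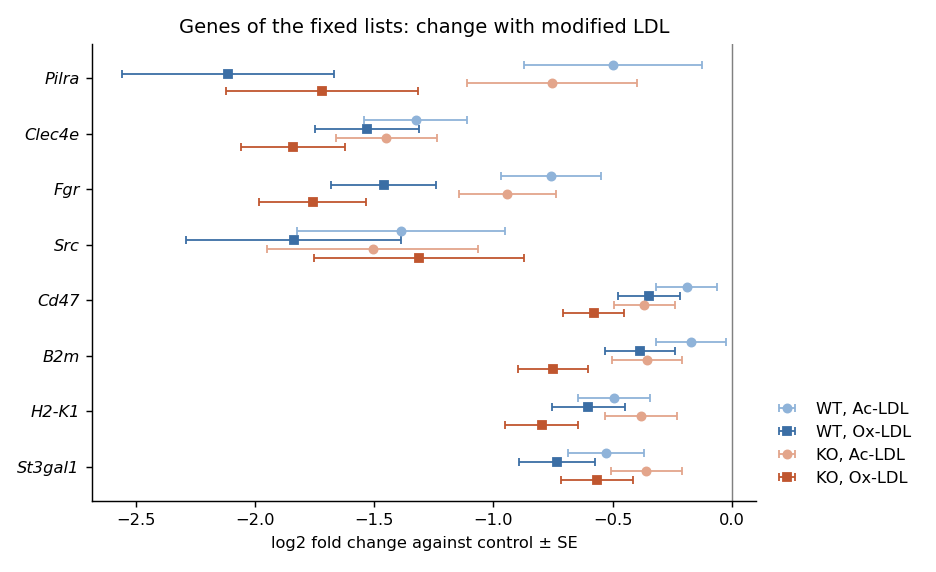
Log2 fold change against Control (x axis, edgeR fit of all 18 libraries) of 8 genes of the fixed lists that were past the threshold in at least 1 treatment comparison, by genotype and LDL. Points are estimates and bars 1 SE. All 32 estimates lay below 0, and *Pilra* with Ox-LDL in wild type cells had the lowest, at -2.11. The genes were drawn for calls that were all lower, and comparisons of a genotype share Control libraries. The common direction is therefore partly fixed by the choice of genes.

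Over the 18 libraries, the genes whose log2 CPM followed *Cd33* most closely, among 9830 tested genes with a mean of at least 5 CPM, were *Rcsd1* (Pearson r = 0.89), *Arhgap24* (0.88), *Fcgr3* (0.87), *Gas6* (0.87) and *Rab3il1* (0.86). These are a description over libraries that share mice and treatments, with Spearman's rho between 0.83 and 0.85. Within groups, after the group means were removed, r was 0.65, 0.85, 0.65, 0.66 and 0.62. By Spearman's rho the closest gene was *Ivns1abp* (0.91), and none of the 5 ranked above 6th. *Siglece*, with a mean under 5 CPM, was not among the genes compared. Of the other 8 genes of the set, *Cd300lf* had the highest r with *Cd33* (0.51) and *Clec12a* the lowest (-0.78). Within groups these values were 0.53 and -0.70, over libraries of a mouse that are not independent. Wild type mouse 1 had the lowest wild type *Clec12a* in every medium. It also had the highest wild type *Cd33* in Control and with Ac-LDL, and r without this mouse was not computed.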

How the data were processed

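RNA-Seq of bone marrow-derived macrophages of 6 mice was analysed, 18 libraries in 6 groups of genotype and treatment taken from the labels. The authors used the nf-core pipeline (Trim Galore, STAR on mm10, Salmon with Ensembl release 93) and deposited estimated counts per gene, not normalized. Neither tool versions nor the strandedness used in counting are given in the sources used here. Total counts were between 1043492 and 1768816 per library, and intervals cover counting error only.

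Counts were rounded, filtered with filterByExpr (minimum count 2, minimum total count 10; 12290 of 31053 genes left), TMM-scaled and fitted over all 6 groups with the quasi-likelihood test of edgeR (version 4.0.16, R 4.3.3), and p-values were adjusted after Benjamini-Hochberg across the tested genes (threshold 0.05). CPM are after TMM, and a prior count of 2 was used for log2 CPM. The animal's identifier in the labels pairs the treatments of a mouse. Deviations of libraries of the same mouse from their group means had r from 0.055 to 0.293, over 0.1 in 14 of 18 pairs, and the fit with the mouse as a block is given beside calls against Control that it changes. Alternatives were DESeq2 (version 1.42.0), other scalings, filters and libraries, and near copies summed. The tests were checked on simulated data.

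The genes and lists were chosen with earlier results of these data known. Named are the 10 genes, *Slc7a7*, the list genes past the threshold (at most 4 a list and comparison) and the 5 genes most like *Cd33*, of which some that meet the rule are not reported here; list genes called only with the block were named after their values were seen. Coordinates, exons and lengths are from GENCODE M21 (GRCm38), and promoter sequences from RefSeq (GRCm38.p6). Figures were drawn with matplotlib 3.10.9.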

Additional observations from a re-analysis of the deposited data

How the results depend on the processing

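With the replicate block, the number of the 10 genes called with Ox-LDL moved from 2 to 5 in wild type and from 3 to 8 in knockout cells. With Ac-LDL it moved from 0 to 1 in wild type and from 0 to 4 in knockout cells, and for Ox-LDL against Ac-LDL from 0 to 1 in wild type and from 0 to 2 in knockout cells. The paired fit changed no call for the difference in response. A fit of only the libraries compared called 0 with Ox-LDL in wild type cells, and in knockout cells 7 with Ox-LDL, 2 with Ac-LDL and 1 for Ox-LDL against Ac-LDL. Without a filter the counts were 6 with Ox-LDL and 2 with Ac-LDL in knockout cells and 1 for Ox-LDL against Ac-LDL in wild type cells. For knockout against wild type the count was 1 both in Control and over mouse sums. That gene was *Cd33*, whose choice rests on some of the same libraries, so that no test of it is read. Leaving out 1 library at a time, or wild type mouse 1, gave 1 to 3 calls with Ox-LDL in wild type cells. DESeq2, scaling by library size or RLE, the default filter, the table without *Gm26917* and the summing of near copies left every count within 1.5 times of the main count. The cause of these moves was not tested. Shares of all genes called are given above only for the fits without and with the block. Nothing about the 10 genes is therefore read from the counts of the other fits.

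For single genes, 37 results (*Cd33* in each comparison, other genes at an unadjusted p under 0.05) were recomputed 558 times, and 0 turned direction. Of these, 511 kept their side of the threshold, 37 passed it only in the alternative and 10 lost it. That 0 turned direction is partly fixed by the rule of entry, an unadjusted p under 0.05. Among recomputed results of the 10 genes outside that rule, 116 turned direction and 1204 kept both direction and side of the threshold. These counts include the comparison used for the choice, in which *Cd33* had log2 fold changes of 1.46 to 1.81 over the alternatives. Leaving out wild type mouse 1 and adding *Lilra6* and *Gm14548* to *Pirb* and *Pira2* were chosen after seeing the data. *Siglece* and *Cd300lf* rest on few reads, with 0 to 18 and 5 to 28 counts per library.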
